A study of Sus scrofa with 10 samples.

Results

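The CIDE, perilipin and DGAT genes, which encode proteins that build, coat and enlarge lipid droplets, were examined in alveolar macrophages, the phagocytes that patrol the air sacs of the lung. All 10 genes of these families on the chosen list (CIDEA, CIDEB, CIDEC, PLIN1 to PLIN5, DGAT1 and DGAT2) had a probe set on the Affymetrix Snowball pig array. They were found by gene symbol in the platform annotation and made up 10 of 13755 named genes, and 19 of 47845 probe sets. Each gene is described first by its main probe set, the one with the highest mean over the 10 arrays, and then by its others.

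The macrophages came from 5 Hampshire pigs, each of which gave 1 array of adherent and 1 array of non-adherent cells. All cells had been frozen, and after thawing they spent a night in medium with rhCSF-1, the macrophage growth factor; every sample carries the labels untreated and 0 h. The floating cells were then collected and a cytometer selected those of high size and granularity, whereas the protocol of the attached cells names no sort and mentions lipopolysaccharide. The adherent values are a re-analysis of arrays from a previous series, so adherence, array series and sort cannot be told apart. The labels name neither age nor sex.

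Lipid droplets are stores of neutral lipid, mainly triglyceride and cholesteryl ester, within a single layer of phospholipid. DGAT1 and DGAT2 catalyse the last step of triglyceride synthesis, perilipins coat the droplet and control the access of lipases, and CIDE proteins drive the exchange of lipid between droplets and, for CIDEB, the loading of lipoproteins in liver. Alveolar macrophages take up and break down surfactant lipid, and macrophages that store much neutral lipid are known as foam cells.

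Non-adherent cells had 1 member higher and 2 lower than adherent cells. CIDEB rose, and PLIN3 and DGAT1 fell, each with no overlap between the groups, as for 15% of all genes in either direction. CIDEC was lower in all 5 animals but did not pass the test, and it varied widely among adherent arrays. Such agreement over 5 of 5 animals was common, with 16.5% of all genes lower and 15.3% higher. The other 6 members (CIDEA, PLIN1, PLIN2, PLIN4, PLIN5 and DGAT2) did not pass, with log2 differences between -0.20 and -0.05. All log2 differences are non-adherent minus adherent with the moderated standard error from limma (n = 5 arrays per group), and the threshold was an adjusted p of 0.05 over all 13755 genes. Of all genes, 6.72% were called higher and 9.78% lower, so 3 of 10 members stood beside 16.5% of all genes called in either direction. The called members were among the 8 above the median level of all probe sets, and 21.1% of the 9910 genes above that level were called. With the animal as a block the members again counted 3, beside 18.2% of all genes. The median log2 difference was -0.15 over the members and 0.01 over all genes. RNA was measured in bulk, so fewer cells of a type and less RNA per cell cannot be told apart.

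**Figure D1:**
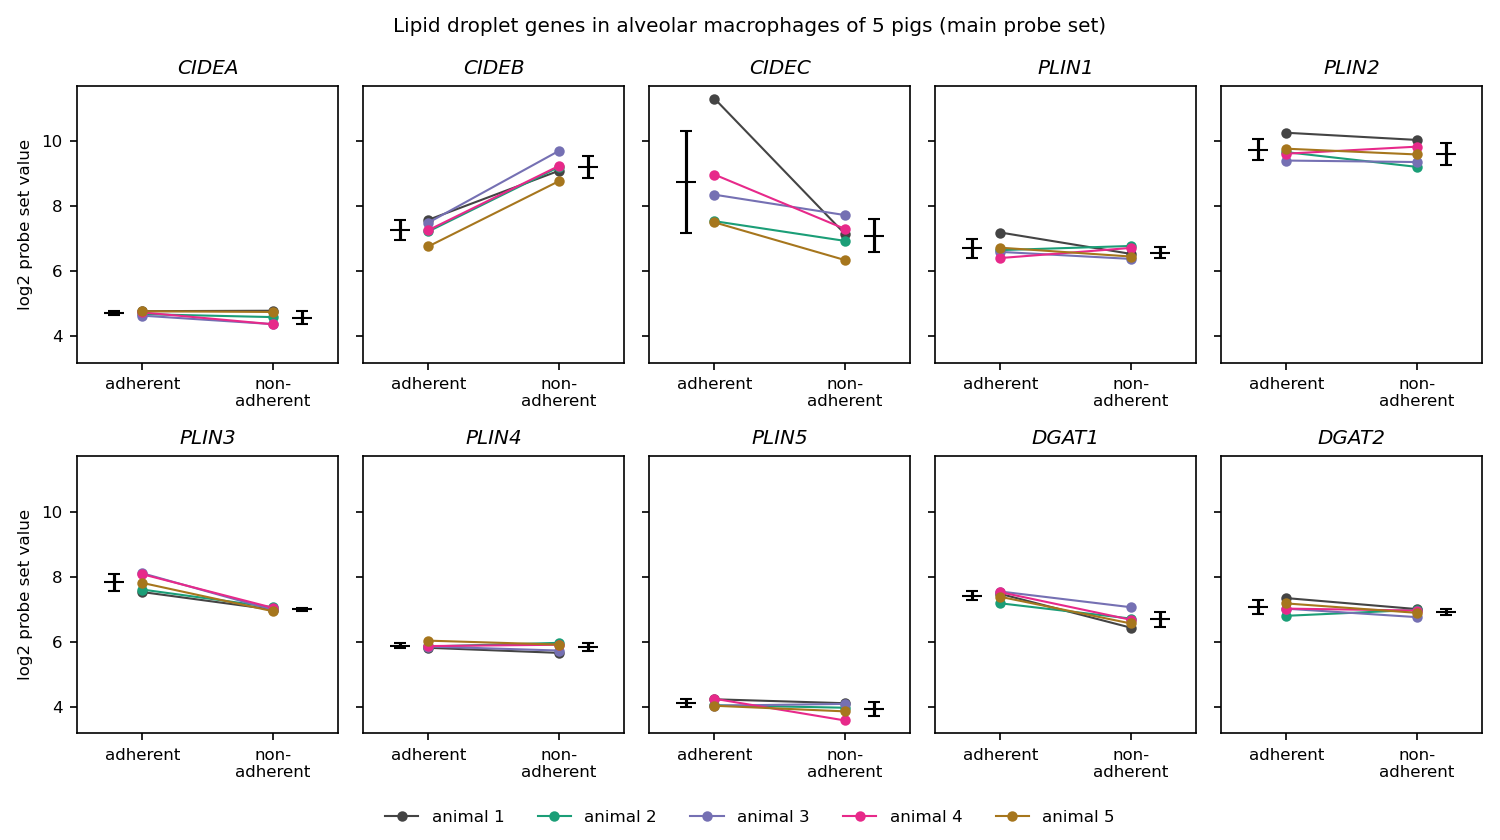
Log2 value of the main probe set of each gene (y axis) in adherent and non-adherent cells (x axis). Lines join the 2 arrays of an animal, and black marks give the mean and SD of 5 arrays. CIDEB lay between 6.76 and 7.58 in adherent cells and between 8.77 and 9.70 in non-adherent cells, and the adherent array of animal 1 stood at 11.31 for CIDEC.

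The array of adherent animal 1 stood apart from the rest. Its mean correlation across genes with the other adherent arrays was 0.952, against 0.978 to 0.979 for those arrays and 0.984 to 0.988 among non-adherent arrays. It held the highest adherent value for 6 of 10 members and for 12 of their 19 probe sets. The 9 spiked hybridization controls averaged a log2 value of 10.34 to 10.77 on the non-adherent arrays and 9.03 to 9.24 on the adherent arrays, so the 2 array sets differed in a quantity that does not come from the cells. Without the array of adherent animal 1, 9.34% of genes were called higher and 13% lower, and the members again counted 1 higher and 2 lower. Its part is given beside some single results, and others named below also moved without it. MSR1 went from 0.96 to 1.24 and ABCG1 from 1.78 to 2.18. AIFM2 went from -1.41 to -1.15 and PCYT1A from -0.93 to -0.78.

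Among the CIDE genes, CIDEB is the member best known from hepatocytes, where it takes part in lipoprotein lipidation. Its log2 value was 9.09, 9.20, 9.70, 9.24 and 8.77 in non-adherent cells of animals 1 to 5. In adherent cells of the same animals it was 7.58, 7.22, 7.50, 7.26 and 6.76. Every non-adherent array lay above every adherent array, as was the case for 6.35% of all genes in that direction. The means were 9.20 ± 0.34 and 7.27 ± 0.32 (SD, n = 5 each), a log2 difference of 1.94 ± 0.19 or 3.83-fold (95% interval 2.88 to 5.09, adjusted p = 0.000119 by limma). Within animals the difference ran from 1.51 in animal 1 to 2.21 in animal 3. By size of a positive difference CIDEB ranked 20 among 13755 genes. Leaving out any 1 array gave differences of 1.81 to 2.04.

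The second CIDEB probe set showed the same direction at a smaller size. It read 8.45, 8.09, 8.42, 8.52 and 7.80 in non-adherent cells and 7.17, 7.00, 7.43, 7.15 and 7.05 in adherent cells of animals 1 to 5. Its groups did not overlap either, and its log2 difference was 1.10 ± 0.14 (adjusted p = 0.00115 over all probe sets, of which 10.8% were called, 4.73% as higher and 6.04% as lower). A further probe set is annotated with the spelling CIDE-B, which the RefSeq gene table for the pig lists as a synonym of CIDEB. It was not a member under the symbol rule, and it was found because its profile was the one most like that of CIDEB. It read 8.93, 8.90, 9.52, 8.98 and 8.66 in non-adherent cells against 7.92, 7.32, 7.88, 7.60 and 6.99 in adherent cells. Its log2 difference was 1.45 ± 0.20 (adjusted p = 0.000942). Its mean over the arrays, 8.27, was just above the 8.23 of the main CIDEB probe set, so with the synonym merged the highest-mean rule would give 1.45 in place of 1.94 for CIDEB. Both CIDEB probe sets were higher in 5 of 5 animals. So was the CIDE-B probe set, but its selection by likeness to CIDEB favours that direction.

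In the RefSeq table of Sscrofa11.1, CIDEB overlaps LTB4R2, a receptor for leukotriene B4 and related lipids, and NOP9, a nucleolar protein. LTB4R2 differed by 0.13 ± 0.11 and did not pass (adjusted p = 0.465), and NOP9 had no named probe set. LTB4R2 lay between 5.21 and 5.53 in adherent cells and between 5.41 and 5.90 in non-adherent cells, and the groups overlapped. LTB4R, a leukotriene B4 receptor gene near CIDEB, rose by 0.65 ± 0.16 (adjusted p = 0.0159) in 5 of 5 animals, a call lost without animal 2, 3 or 5 (highest adjusted p 0.09). No source used here names the build of the array design, so that table served for names and neighbours alone.

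CIDEC, known in the mouse as Fsp27, promotes the fusion of droplets into large ones and is abundant in fat cells. Its log2 value was 11.31 in the adherent array of animal 1 and 7.54, 8.35, 8.97 and 7.50 in those of animals 2 to 5. In non-adherent cells of animals 1 to 5 it was 7.15, 6.93, 7.73, 7.30 and 6.34. The adherent value of animal 1 was the highest of all, the other adherent values overlapped the non-adherent range narrowly, and each animal had less CIDEC signal in non-adherent cells. The within-animal differences were -4.16, -0.61, -0.63, -1.67 and -1.16. The fitted difference was -1.65 ± 0.63, with a 95% interval of -3.03 to -0.26, and did not pass (unadjusted p = 0.0239, adjusted p = 0.0988 by limma). The SD was 1.57 in adherent cells and 0.51 in non-adherent cells.

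Without the array of adherent animal 1 the CIDEC difference was -1.002 (adjusted p = 0.0512). With the animal as a block it was -1.65 (adjusted p = 0.0546), and with the block but without both arrays of animal 1 it was -1.02 and passed (adjusted p = 0.00356), which made 4 members called. That last setting was chosen after the data were seen. Both other CIDEC probe sets also read highest in adherent animal 1, at 10.66 and 8.48. The remaining adherent arrays ran from 6.82 to 8.15 on the former and from 4.73 to 5.57 on the latter. The differences of these 2 were -1.27 ± 0.63 (adjusted p = 0.228 over all probe sets) and -1.61 ± 0.62 (adjusted p = 0.125), lower in 5 of 5 and in 4 of 5 animals. The CIDEB difference exceeded the CIDEC difference of the main probe sets by 2.59 in animal 2 to 5.67 in animal 1, and this gap was not tested.

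CIDEA, a gene of brown fat and of secretory mammary cells, lay below the median level of all probe sets, a log2 value of 5.02, on every array. It ranged from 4.36 to 4.78 in non-adherent cells and from 4.63 to 4.77 in adherent cells. The difference of -0.14 ± 0.10 did not pass (adjusted p = 0.36), with a 95% interval of -0.37 to 0.08.

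**Figure D2:**
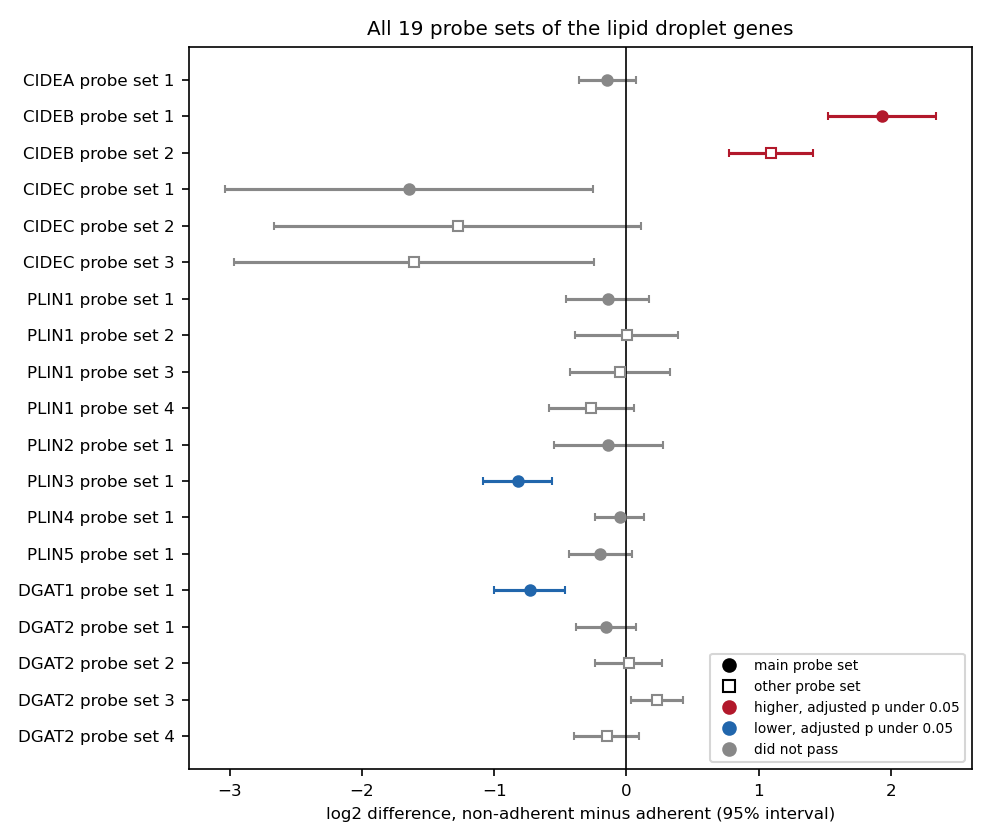
Log2 difference, non-adherent minus adherent (x axis), with 95% intervals for all 19 probe sets of the 10 genes (y axis), ordered by mean level within a gene. Filled circles are main probe sets, open squares the others, and colour marks an adjusted p under 0.05 over all probe sets. The 4 coloured intervals are both CIDEB probe sets, PLIN3 and DGAT1, and the 3 CIDEC intervals are the widest.

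Of the perilipins, PLIN3 alone passed. PLIN3, also known as TIP47, is made in most cell types and moves from the cytosol onto small, newly formed droplets. It read 6.99, 7.06, 6.98, 7.04 and 6.94 in non-adherent cells of animals 1 to 5, and 7.53, 7.60, 8.11, 8.07 and 7.81 in adherent cells. The groups did not overlap, a pattern shared in that direction by 8.63% of all genes. PLIN3 fell by 0.82 ± 0.12, or 1.77-fold (adjusted p = 0.00126), and within animals by 0.54 to 1.13. Its non-adherent arrays were close together, with an SD of 0.05 against 0.26 in adherent cells. The difference was -0.90 without adherent animal 1, the lowest adherent array for this gene.

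PLIN2, or adipophilin, coats the droplets of macrophages and foam cells. Its log2 value was 10.04, 9.21, 9.36, 9.83 and 9.59 in non-adherent cells and 10.26, 9.66, 9.40, 9.62 and 9.77 in adherent cells of animals 1 to 5. Animal 1 was highest in both groups, the groups overlapped, and 4 of 5 animals were lower in non-adherent cells. The difference was -0.14 ± 0.19 (adjusted p = 0.665), with a 95% interval of -0.55 to 0.28. As folds, the interval ran from 1.46-fold lower to 1.21-fold higher. Without adherent animal 1 the difference was -0.01.

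PLIN1 is the perilipin of fat cells. Its main probe set ranged from 6.38 to 6.77 in non-adherent cells and from 6.40 to 7.19 in adherent cells, the last value again from animal 1. The difference was -0.14 ± 0.14 (adjusted p = 0.542), and -0.02 without adherent animal 1. The other 3 PLIN1 probe sets gave 0.003, -0.05 and -0.26, none of which passed. PLIN4, found on small droplets in fat and muscle cells, ranged from 5.65 to 5.96 in non-adherent cells and from 5.81 to 6.03 in adherent cells, with a difference of -0.05 ± 0.09 (adjusted p = 0.743). PLIN5, which joins droplets to mitochondria in oxidative tissue, lay below the median level of all probe sets on every array, at 3.57 to 4.10 against 4.03 to 4.24. Its difference was -0.20 ± 0.11 (adjusted p = 0.26). In the RefSeq table PLIN4 and PLIN5 are direct neighbours, and neither passed.

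DGAT1, an enzyme of the endoplasmic reticulum, fell in non-adherent cells. It read 6.43, 6.71, 7.06, 6.67 and 6.56 in non-adherent cells of animals 1 to 5 and 7.47, 7.18, 7.54, 7.52 and 7.38 in adherent cells. No non-adherent array reached the lowest adherent array, as for 8.63% of all genes in that direction. DGAT1 fell by 0.73 ± 0.12, or 1.66-fold (adjusted p = 0.00277), with differences within animals of -1.04 to -0.47. HSF1, the heat shock factor whose gene overlaps DGAT1 in the RefSeq table, differed by -0.22 ± 0.13 and did not pass (adjusted p = 0.288).

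DGAT2, which catalyses the same step but is unrelated in sequence, did not pass. Its main probe set ranged from 6.75 to 7.00 in non-adherent cells and from 6.80 to 7.34 in adherent cells, with a difference of -0.15 ± 0.11 (adjusted p = 0.362, 95% interval -0.39 to 0.08). Its other 3 probe sets differed by 0.02, 0.23 and -0.15. The one at 0.23 ± 0.09 was higher in 5 of 5 animals, against the direction of the main one, and did not pass (adjusted p = 0.127 over all probe sets). Both enzymes were thus measured, and DGAT1 alone passed. The difference between their changes was not tested.

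**Figure D3:**
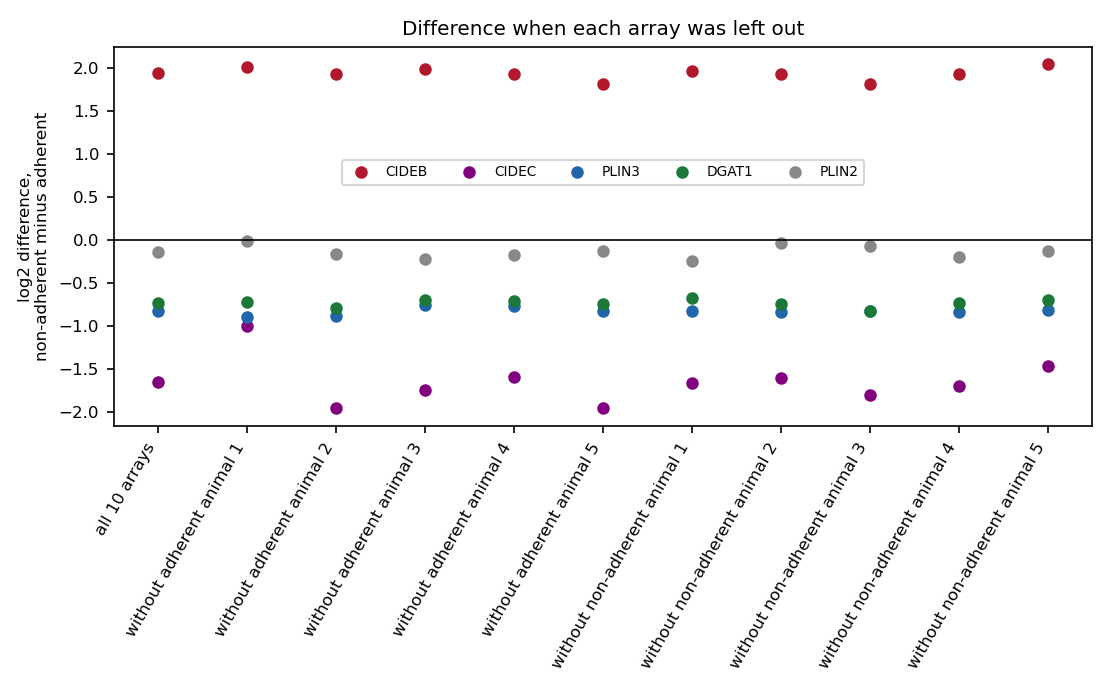
Log2 difference, non-adherent minus adherent (y axis), of 5 genes with all 10 arrays and with each array left out in turn (x axis). CIDEB stayed between 1.81 and 2.04, and CIDEC moved from -1.65 to -1.002 when the adherent array of animal 1 was left out.

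Neighbouring steps of lipid storage were described with 6 gene lists, which were drawn up with earlier results of these data known. Together they held 104 measured genes, of which 8 rose, 20 fell and 76 did not pass, with a median log2 difference of -0.15. Of all genes 6.72% rose and 9.78% fell. The list of triglyceride and sterol ester synthesis leaves out the members DGAT1, called lower above, and DGAT2. In it 0 of 20 genes passed by limma, while 1 was higher and 2 lower at an unadjusted p under 0.05. The median was -0.08. The count of called genes was 1 lower with the animal as a random effect, without adherent animal 5 or with the mean of probe sets. It was 3 lower with the block and without animal 1. AGPAT1, which makes phosphatidic acid, had the lowest p (-0.55 ± 0.19, adjusted p = 0.0701). SOAT1, which esterifies cholesterol in macrophages, differed by 0.08 ± 0.24, and ACSL1, which activates fatty acid, by -0.48 ± 0.60. With the array of adherent animal 1 left out these were -0.18 and -1.05, and neither passed.

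In lipolysis and its control, 4 of 12 genes fell and 1 rose, with a median of -0.34, or -0.13 without the array of adherent animal 1. LIPE, the hormone-sensitive lipase, fell by 1.35 ± 0.20 (adjusted p = 0.0012). Its non-adherent arrays lay between 4.90 and 5.64 and its adherent arrays between 6.21 and 7.14. The other 2 LIPE probe sets differed by -0.10 and -0.23 and did not pass, and the mean of all 3 was -0.56 (adjusted p = 0.00401). G0S2, an inhibitor of the lipase ATGL, fell by 1.01 ± 0.18 (adjusted p = 0.00346), from 6.72 to 7.73 in adherent cells to 5.86 to 6.45 in non-adherent cells. NCEH1, a neutral cholesteryl ester hydrolase of macrophages, rose by 1.10 ± 0.20 (adjusted p = 0.00402) in 5 of 5 animals. PNPLA8 fell by 0.62 ± 0.17 (adjusted p = 0.0334). Dropping any of 5 single arrays ended the PNPLA8 call (highest adjusted p 0.0789), and so did averaging its 2 probe sets (-0.32, adjusted p = 0.179).

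ATGL itself, listed as PNPLA2, differed by -0.42 ± 0.28 and did not pass (adjusted p = 0.326). Adherent animal 1 read 9.95 and the other adherent arrays 8.29 to 8.57, and without that array the difference was -0.12. ABHD5, the activator of ATGL, differed by -0.15 ± 0.37 and by 0.25 without that array. HILPDA, another ATGL inhibitor, has no probe set under that symbol. Its RefSeq synonym HIG2, looked up after the values were seen, read 8.42, 8.05, 8.71, 9.05 and 8.88 in non-adherent cells against 10.09, 9.69, 9.76, 9.27 and 9.93 in adherent cells. It fell by 1.13 ± 0.20 (adjusted p = 0.00375) with no overlap between the groups, as for 8.63% of all genes in that direction. G0S2 and HIG2 were each lower in 5 of 5 animals.

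Of 21 genes of droplet formation and surface, 3 fell and 2 rose (median -0.07). AIFM2, a droplet-associated oxidoreductase, fell by 1.41 ± 0.26 (adjusted p = 0.00445). SPG20, which encodes the droplet-binding protein spartin, fell by 0.84 ± 0.09 (adjusted p = 0.000286). PCYT1A, the enzyme that sets the rate of phosphatidylcholine synthesis for the droplet surface, fell by 0.93 ± 0.15 (adjusted p = 0.00208). With the mean of probe sets SPG20 fell by 0.54 and PCYT1A by 0.62, and both passed (adjusted p = 0.00484 and 0.0116). RAB7A, a GTPase of late endosomes, rose by 0.44 ± 0.08 and ANXA2, a membrane-binding annexin, by 0.28 ± 0.07. The directions of both turned with the mean of their probe sets, to -0.21 and -0.20, and an animal block ended the ANXA2 call (adjusted p = 0.0541). The second RAB7A probe set differed by -0.87 ± 0.25 and was called in the opposite direction (adjusted p = 0.0485 over all probe sets). The second ANXA2 probe set differed by -0.69 ± 0.23 and did not pass (adjusted p = 0.0793). BSCL2, which encodes seipin and shapes nascent droplets, differed by -0.11 ± 0.17. FITM2, an endoplasmic reticulum protein needed for droplet budding, differed by -0.28 ± 0.19, and neither passed.

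Lipid uptake had 2 of 17 genes higher and 2 lower (median -0.03). SLC27A4, a fatty acid transport protein, fell by 0.91 ± 0.17 (adjusted p = 0.00539), and MFSD2A, a carrier of lysophospholipid, by 0.67 ± 0.17 (adjusted p = 0.0224). The scavenger receptor MSR1 rose by 0.96 ± 0.26 and CAV1, which encodes caveolin-1, by 0.41 ± 0.12. The MFSD2A call was lost without any of 3 arrays (highest adjusted p 0.0538), and those of MSR1 and CAV1 without any of 8 each (0.073 and 0.0873). The mean of the 19 CAV1 probe sets was also not called (0.15, adjusted p = 0.0886). CD36, the fatty acid translocase (-0.49 ± 0.54), LPL, which releases fatty acid from lipoproteins (1.12 ± 0.52, or 0.62 without the array of adherent animal 1), and the fatty acid carrier FABP4 (-0.20 ± 0.18) did not pass. With single arrays left out CD36 ran from -0.81 to -0.17, and FABP4 from -0.29 to -0.04.

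Of 20 lipid-sensing transcription factors and coactivators, 8 fell and 0 rose, with a median of -0.44. NR1H2, the liver X receptor beta, fell by 0.93 ± 0.09 (adjusted p = 0.000132), and EPAS1, a hypoxia-inducible factor, by 0.74 ± 0.17 (adjusted p = 0.0147). SREBF1, which drives fatty acid synthesis, fell by 0.83 ± 0.23 (adjusted p = 0.0304), a call lost without any of 4 arrays (highest adjusted p 0.072). PPARG, which activates perilipin and CIDE genes in fat cells, fell by 0.64 ± 0.14 (adjusted p = 0.0124). The PPARG call was lost without animal 4 (adjusted p = 0.0513), and the EPAS1 call without animal 2 or 3 (highest adjusted p 0.0755).

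In lipid efflux and transfer, 3 of 14 genes rose and 3 fell (median -0.30, or -0.002 with the mean of probe sets). The cholesterol exporter ABCG1 rose by 1.78 ± 0.41 and the transporter ABCG2 by 1.56 ± 0.31 (adjusted p = 0.014 and 0.00631). The ABCG1 call was lost without animal 2, 3 or 5 (highest adjusted p 0.0712). Averaging its 3 probe sets gave 0.75, which did not pass (adjusted p = 0.126). Averaging the 3 ABCG2 probe sets gave 0.96 (adjusted p = 0.0103), and neither of its other probe sets passed alone (adjusted p = 0.0974 and 0.0706 over all probe sets). MTTP, which loads lipid onto lipoproteins, rose by 0.34 ± 0.09 at a level of 3.51 to 4.13, below the median of all probe sets. That call was lost without any of 5 arrays (highest adjusted p 0.0709) and with quantile normalization. APOE, the apolipoprotein made by macrophages, fell by 1.21 ± 0.26, the lysosomal cholesterol exporter NPC1 by 0.69 ± 0.08 and the oxysterol-binding protein OSBPL2 by 0.40 ± 0.12. The OSBPL2 call was lost without any of 6 arrays (highest adjusted p 0.0903), and an animal block gave an adjusted p of 0.0627. The second OSBPL2 probe set differed by -0.67 ± 0.18 and passed (adjusted p = 0.0369 over all probe sets by limma). The mean of both gave -0.54 and also passed (adjusted p = 0.0117).

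**Figure D4:**
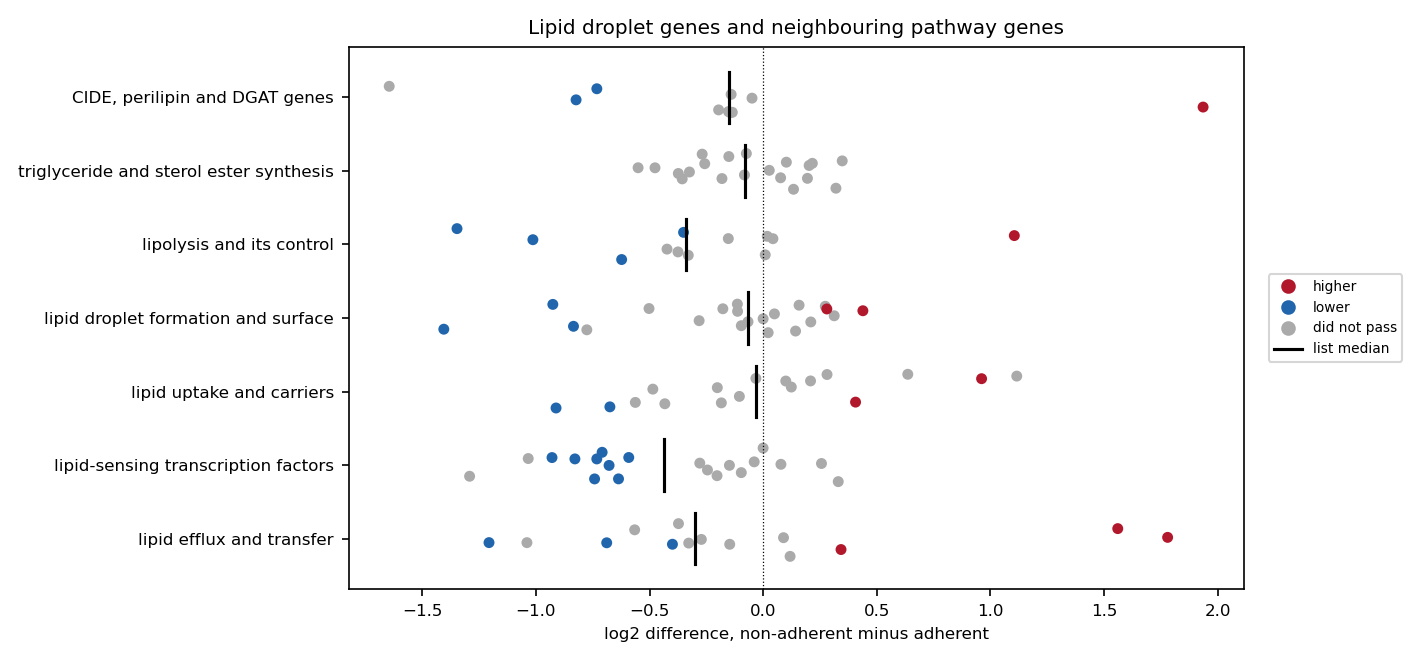
Log2 difference, non-adherent minus adherent (x axis), of each measured gene in the lipid droplet families and in 6 neighbouring lists (y axis). Red and blue points passed an adjusted p of 0.05 as higher or lower, grey points did not, and black bars are list medians. Transcription factors had 8 blue and 0 red points. The synthesis list, which leaves out DGAT1 and DGAT2, had 0 of either.

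Markers of other cells were read beside these results. For comparison, 6.72% of all genes were called higher and 9.78% lower. Of 15 dendritic cell markers 7 rose and 0 fell, and their mean log2 level was 6.95 to 8.02 in non-adherent and 6.34 to 6.63 in adherent arrays. This list moved in the same direction as CIDEB, and its part in that result was not tested. Of 12 adipocyte markers 1 fell, LIPE, and their mean level was 5.52 to 5.75 against 5.73 to 6.01. The adipocyte hormones ADIPOQ (6.94 to 7.66 against 6.73 to 7.97) and LEP (3.84 to 4.46 against 3.66 to 4.13) overlapped between the groups. Of 14 epithelial markers 2 fell, of 15 lymphocyte markers 0 passed (1 higher and 0 lower at an unadjusted p under 0.05) and of 8 neutrophil markers 0 passed (0 in either direction at that level). The neutrophil list had a mean level of 9.04 to 9.23 in non-adherent and 8.62 to 9.22 in adherent arrays. Without the array of adherent animal 1, 1 lymphocyte marker and 1 neutrophil marker were called higher. That setting gave 8 higher and 1 lower among dendritic cell markers, and 1 higher and 1 lower among adipocyte markers. The epithelial list stayed at 0 higher and 2 lower. Of 10 fibroblast markers 1 rose and 1 fell (2 and 1 without the array of adherent animal 1). Of 12 alveolar macrophage markers 2 rose and 2 fell (4 and 2 without the array of adherent animal 1), with a median log2 difference of 0.35, against 0.33 for the dendritic cell list. Of these macrophage markers 10 lay above the median level of all probe sets, at a mean of 8.42 to 8.86 in non-adherent and 8.08 to 8.96 in adherent arrays. Log2 array values have no true zero, so absence of a marker cannot be read from them.

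Profiles most like those of the members were ranked by the root mean square log2 difference over the 10 arrays, each gene centred on its own mean, among 9909 genes above the median level. For CIDEB the closest after the CIDE-B probe set (0.26) were TLR7, an endosomal RNA sensor (0.30), and the main probe set of RPL19, a ribosomal protein (0.33). RPL19 has 74 probe sets, whose mean differed by 0.18. For CIDEC the closest were DUOXA2 (0.37) and DUOX2 (0.39), which form a hydrogen peroxide-generating oxidase. DUOX2 read highest in adherent animal 1, at 11.32 against 7.51 to 8.29 in the other adherent arrays, and DUOXA2 read 11.29 there against 6.84 to 8.57. Both were picked for a profile like that of CIDEC, itself highest in that array, so this is no separate observation. PLIN3 was closest to TRUB2 (0.11), MRPL28 (0.12) and FAM173A (0.12), all lower in non-adherent cells, a direction that selection by likeness to PLIN3 favours. DGAT1 was closest to MTMR14 (0.12), HIP1R (0.13) and TMEM184B (0.13), and PLIN2 to BOD1 (0.16), GPD1L (0.17) and HEG1 (0.17). The nearest genes of the remaining members above the median level (DCLK3, EPHB3 and EIF3H for PLIN1, PTPN14, MYO15A and APOA5 for PLIN4, SNPH, XRCC3 and KCNK15 for DGAT2) lay at 0.06 to 0.10.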

How the data were processed

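The authors deposited one log2 value per probe set and array. RMA and Partek are the tools listed in the submitters' processing notes, without versions; no source says if the 2 array sets went through normalization jointly. The 10 array medians ran from 4.97 to 5.09. The number of arrays limits the precision.

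Probe sets were named from the platform annotation, which gave 26426 of 47845 a single symbol. For each of 13755 genes the probe set of highest mean was kept. Non-adherent minus adherent was fitted with lmFit and eBayes (limma 3.58.1, R 4.3.3), 2-sided, with Benjamini-Hochberg adjustment over all genes, or over all probe sets where stated. The fit was tested on simulated data with independent arrays. That simulation held no animal pairing, no outlying array and no shift between array sets, so it does not bear on those features. One gene that the rule for named genes gives is not reported here. Members and lists were chosen with earlier results of these data known. From each list, up to 3 genes per direction past the threshold with the largest difference were named, or, in a list with no call, its lowest p, plus all members, the 3 profiles most like each member above the median level, and PNPLA2, ABHD5, G0S2, HILPDA, LIPE, SOAT1, BSCL2, FITM2, PPARG, CD36, FABP4, LPL, ACSL1 and ABCG1.

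Both groups came from the same animals, per the series design, which pairs the arrays. Nothing says that cultures were repeated within an animal. Residuals of arrays from the same animal correlated across genes at 0.116 to 0.398, lowest in animal 1. Those of different animals ran from -0.312 to 0.212, the highest between adherent animal 1 and non-adherent animal 2. The main fit had no animal block. Alternatives were the block, a random animal effect, each array or animal left out, centring, quantile normalization, a level filter, other variance models, array weights, the mean of probe sets and a size threshold. Figures were drawn with matplotlib 3.10.9.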

Additional observations from a re-analysis of the deposited data

Results flagged for a closer look

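Of 140 groups of 5 arrays examined, 14 held an array far from the others by Dixon's ratio (critical value 0.71). In independent groups chance passes that value about 1 time in 20, but these groups share the same 10 arrays, and some hold genes chosen for a profile like a member's, so the count cannot be read against that rate. Each ratio is the gap of the odd array to its nearest neighbour over the whole range. Adherent animal 1 was the high array for the third CIDEC probe set (8.48 against 4.73 to 5.57, ratio 0.776), for a PLIN1 probe set (5.80 against 4.78 to 5.06, 0.727), for PNPLA2 (9.95 against 8.29 to 8.57, 0.835) and for PCYT1A (10.40 against 9.60 to 9.75, 0.811). It was also high for DUOX2 (ratio 0.797), which was chosen for its likeness to CIDEC, for LTB4R, a leukotriene B4 receptor gene near CIDEB (8.34 against 7.52 to 7.70, 0.778), and for GPD1L (5.96 against 5.51 to 5.54, 0.932). It was the low array for SOAT1 (7.86 against 8.98 to 9.32, 0.770). PLIN4 was high in adherent animal 5 (6.03 against 5.81 to 5.86, 0.758). PCYT1A was high in non-adherent animal 4 (9.04 against 8.82 to 8.87, 0.783), and LTB4R2 in non-adherent animal 2 (5.90 against 5.41 to 5.51, 0.796). Animal 2 was low in adherent cells for NR1H2 (8.99 against 9.16 to 9.22, 0.739) and MTMR14 (8.53 against 9.001 to 9.09, 0.842), and in non-adherent cells for MRPL28 (6.94 against 7.12 to 7.18, 0.767).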

How the results depend on the processing

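CIDEB, PLIN3 and DGAT1 passed in their direction under every alternative run on the adjusted p alone, including the animal as a replicate block. Their log2 differences were 1.45 to 2.04, -0.90 to -0.74 and -0.83 to -0.65. The 1.45 is that of the CIDE-B probe set taken in place of CIDEB. The mean of the CIDEB probe sets gave 1.52. The count of members called was 3, also with the replicate block and with any array or animal left out. It was 4 with the replicate block and without animal 1, where CIDEC passed (adjusted p = 0.00356), and 1 with a log2 difference of at least 1. The count of all genes called was 2270, and 2506 with the replicate block, 1119 (without animal 3) to 3067 (without adherent animal 1) in the leave-one-out fits, 3495 with the replicate block and without animal 1, and 327 at a log2 difference of at least 1. Without animal 4 or 5 it was 1445 or 1251. The count of neighbouring pathway genes called was 28, then 17 (without animal 4) to 32 in the leave-one-out fits, 18 without animal 3, and 7 at a log2 difference of at least 1. ABHD5 lay between -0.32 and 0.26 in the leave-one-out fits, at 0.26 without animal 1 and at 0.16 with array weights, against -0.15. SOAT1 lay between -0.18 and 0.19, at -0.12 without animal 1 and at -0.078 with array weights, against 0.08. With the mean of probe sets RAB7A turned to -0.21 and ANXA2 to -0.20. Among the named genes called, the replicate block ended the calls of ANXA2 (adjusted p = 0.0541) and OSBPL2 (0.0627) and no other. With the replicate block and without animal 1, CD36 (-0.79) and ACSL1 (-0.81) passed. The cause was not tested in any of these.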
